A study of Mus musculus with 12 samples.

Results

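This comparison followed the response of the mouse aorta to a dissection-inducing challenge in animals that were given rapamycin throughout. RNA from 3 mice labelled beta-aminopropionitrile + angiotensin II + rapamycin (BA+rapamycin) was set against RNA from 3 mice labelled rapamycin. These 6 arrays were chosen by their treatment labels from 12 arrays in 4 groups, and the other 6 are the BA+DMSO and DMSO arrays, which received the vehicle in place of the drug. All mice were adult C57BL/6J males, and the aorta was taken on day 3. The challenge was a continuous infusion of beta-aminopropionitrile (BAPN) at 150 mg/kg/day and angiotensin II (AngII) at 1 µg/kg/min from implanted pumps. Rapamycin was injected daily at 2 mg/kg/day in dimethylsulfoxide (DMSO), so every mouse of both groups received drug and solvent. The sample was a length of aorta above the right renal artery with all its cell layers, so more cells of a type cannot be told apart from more RNA per cell in any result below. Each array stands for 1 mouse. SEs and p-values come from a model of all 12 arrays, so they measure the spread between mice within all 4 groups, the vehicle groups included.

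The wall of the aorta is made mainly of smooth muscle cells between sheets of elastin and fibres of collagen. BAPN blocks lysyl oxidase, the enzyme that crosslinks newly made collagen and elastin, and AngII constricts vessels and activates smooth muscle, fibroblasts and inflammatory cells, so the combination loads a wall whose new matrix cannot be strengthened. The kinase mTOR couples nutrients and growth factors to protein synthesis, cell growth and division. Rapamycin bound to the protein FKBP12 inhibits one of the complexes that contain mTOR. The question of the comparison is which transcripts still respond to the challenge while that kinase is inhibited.

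The tissue matched its label. Acta2, the smooth muscle actin, had a level on the log2 scale, relative to the 75th percentile of the array, of 9.77, 9.88 and 9.60 on the rapamycin arrays and 10.24, 10.45 and 10.12 on the BA+rapamycin arrays. Myh11, the smooth muscle myosin heavy chain, was at 7.23, 7.32 and 7.15 on the rapamycin arrays and 6.89, 7.18 and 7.47 on the BA+rapamycin arrays. The mean level over the 41 tested genes of smooth muscle contraction was 5.22 to 5.29 on rapamycin arrays and 4.47 to 4.60 on BA+rapamycin arrays.

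The arrays of the challenged mice were dimmer. The 75th percentile of the processed signal, in intensity units, was 257 to 337 on rapamycin arrays and 74.6 to 109 on BA+rapamycin arrays, and the mean share of probes well above background was 51.8% and 43.6%. Spike-in controls, which are meant to be added in equal amount to each sample, went the other way, with a mean log2 signal of 10.87 and 11.44. The total RNA input per array is not given in the labels, and whether it differed between the groups was not tested. Correlations between arrays of a group, across probes, were 0.990 to 0.993 in rapamycin and 0.974 to 0.982 in BA+rapamycin. All BA+rapamycin arrays and 2 of 3 rapamycin arrays lay on slide 2, and rapamycin replicate 1 lay on slide 1. The numbers in the sample titles that look like dates are not shared by the groups, so that such a date and the challenge cannot be told apart. Every difference below is relative to the 75th percentile of the array. Scaled by the spike-in controls instead, the median of all probes moved from -0.085 to -2.23 and 23729 probes were called lower against 231 higher, so the directions given here hold relative to the bulk of the RNA.

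The aorta of rapamycin-treated mice changed broadly under the challenge. Genes of mitosis, chemokines, the interleukin-6 family, macrophage markers, collagen chains, the secretory pathway and the non-muscle cytoskeleton were more often higher than lower. Genes of smooth muscle contraction, nitric oxide and cyclic GMP signalling, TGF-beta and BMP signalling, the mTOR pathway, heat shock chaperones and the respiratory chain were more often lower than higher. With the brightness of each array as a covariate, the lists of the first kind had 3 to 30 members called higher, and those of the second kind 0 to 3 called lower. In that fit 4.62% of all probes were called higher and 1.8% lower, so counts with the covariate are read against these shares, and counts within the second slide against 6.05% and 5.71%. Of 27801 probes tested with limma, 11602 (41.7%) were called at an adjusted p under 0.05, and they carried 9614 of 20026 gene names. Of all probes tested, 18.9% were called higher (5244) and 22.9% lower (6358), and every count for a gene list below is read against these shares. The median over all tested probes was -0.085, with a 10th percentile of -1.11 and a 90th percentile of 1.32. A change of at least 2-fold was seen for 6805 of the called probes (3539 higher, 3266 lower). By the study's rule, which asks for a fold change of over 4 or under 0.25 with p under 0.01 (taken here as the unadjusted p), 1428 probes passed, 1006 higher and 422 lower. Group values did not overlap for 18322 probes (65.9%). Of the called probes, 171 rose from no detected signal on any rapamycin array and 876 fell to none on any BA+rapamycin array.

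The counts moved with the brightness of the arrays and with the arrays that entered the fit. With the brightness of each array as a covariate in the same limma model, 1786 probes were called (1285 higher, 501 lower), of which 1183 were among the 11602, and 77.6% of the 11602 kept their sign. Within the second slide, which keeps 8 of the 12 arrays and 2 of 3 rapamycin arrays, 3268 probes were called, and all 11602 kept their sign. Every fit that left out 1 array also kept all 11602 signs, so kept signs are no separate check of the slide. With slide as a block 7923 were called, the same count as without rapamycin replicate 1, the only array of the 2 groups on slide 1. The share of calls that were higher was 45.2%, but it was 56.8% when the percentile was taken over detected probes, 59.2% with normexp background correction and 39.2% with quantile normalization. Without rapamycin replicate 3, 6530 probes were called. A fit of the 6 arrays alone, where the spread of the vehicle groups does not enter, called 15673. Brightness and challenge moved together over these 6 arrays, and their parts in a difference cannot be told apart within them. In the model of all 12 the covariate rests mainly on BA+DMSO, where the 75th percentile ran from 78.1 to 246. The other ranges were narrower, 74.6 to 109 in BA+rapamycin, 221 to 280 in DMSO and 257 to 337 in rapamycin. Every result with the covariate is read with this limit. Of the genes named here, Ccrl1, Il6ra and Jak3 aside, 312 were called. All 312 kept their sign within the second slide, 119 were also called with the brightness covariate, and 30 changed sign with it, those of the respiratory chain, Serpine2, Pola1, Rpa1, Lnpep, Cat, Cd22, Cpt1b, Csf3r, F10, Fam107a, Hspa8, Itgam, Npas2, Pdcd4, Rrp1b and Tagln among them. A gene stands by 1 probe, and for 32 of the named genes with several tested probes some were not called. Of 2 probes 1 was called for Cat, Ccnd3, Col4a6, Cpt1b, Egln3, Fbln5, Lox, Mitf, Mtor, Myh9, Ncoa7, Nr3c1, Pfn1, Plvap, Psat1, Rpl28, Smad1, Smad5, Sqstm1, Srf, Stat3, Syn3 and Vcam1. Of 3 probes 1 was called for Col15a1, Csf1r, Lifr and Rps6kb1 and 2 for Fkbp1a, Ltbp4 and Synpo2, while Tgfbr1 had 2 of 4 and Tpm1 had 1 of 6.

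Among probes well above background on all 6 arrays, Hmga1 had one of the largest rises (probe at mm9 chromosome 17, 27696588 to 27696647). Hmga1 encodes a chromatin protein of embryonic and dividing cells, and its levels were -2.17, -2.22 and -2.59 on the rapamycin arrays and 3.68, 4.10 and 2.97 on the BA+rapamycin arrays. The groups lay far apart, and the difference was 5.90 (SE 0.52, limma adjusted p 9.39e-05). This was the largest of 3 tested probes of Hmga1, which were all called higher, the lowest at 1.84. Prg4, which encodes lubricin, the lubricating proteoglycan of joints and serous surfaces, was at -1.11, -1.05 and -1.0 on the rapamycin arrays and 3.84, 4.05 and 3.77 on the BA+rapamycin arrays. Its rapamycin arrays lay close together, and the difference was 4.94 (SE 0.41, limma adjusted p 7.89e-05). Ccl2, the main chemokine for monocytes, was at -2.07, -0.62 and -1.52 on the rapamycin arrays and 2.85, 3.84 and 3.73 on the BA+rapamycin arrays. No BA+rapamycin array was near a rapamycin array for Ccl2, although rapamycin replicate 2 was higher than the others, and the difference was 4.88 (SE 0.72, limma adjusted p 0.000996). Mki67, which encodes the proliferation antigen Ki67, was at -3.04, -2.28 and -2.51 on the rapamycin arrays and 2.64, 2.41 and 2.30 on the BA+rapamycin arrays. Its difference was 5.06 (SE 0.40, limma adjusted p 6.60e-05), and a second probe gave 4.25. With the brightness covariate all 4 were still called higher, with differences of 3.69 for Hmga1, 4.58 for Prg4, 6.08 for Ccl2 and 5.26 for Mki67.

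**Figure D1:**
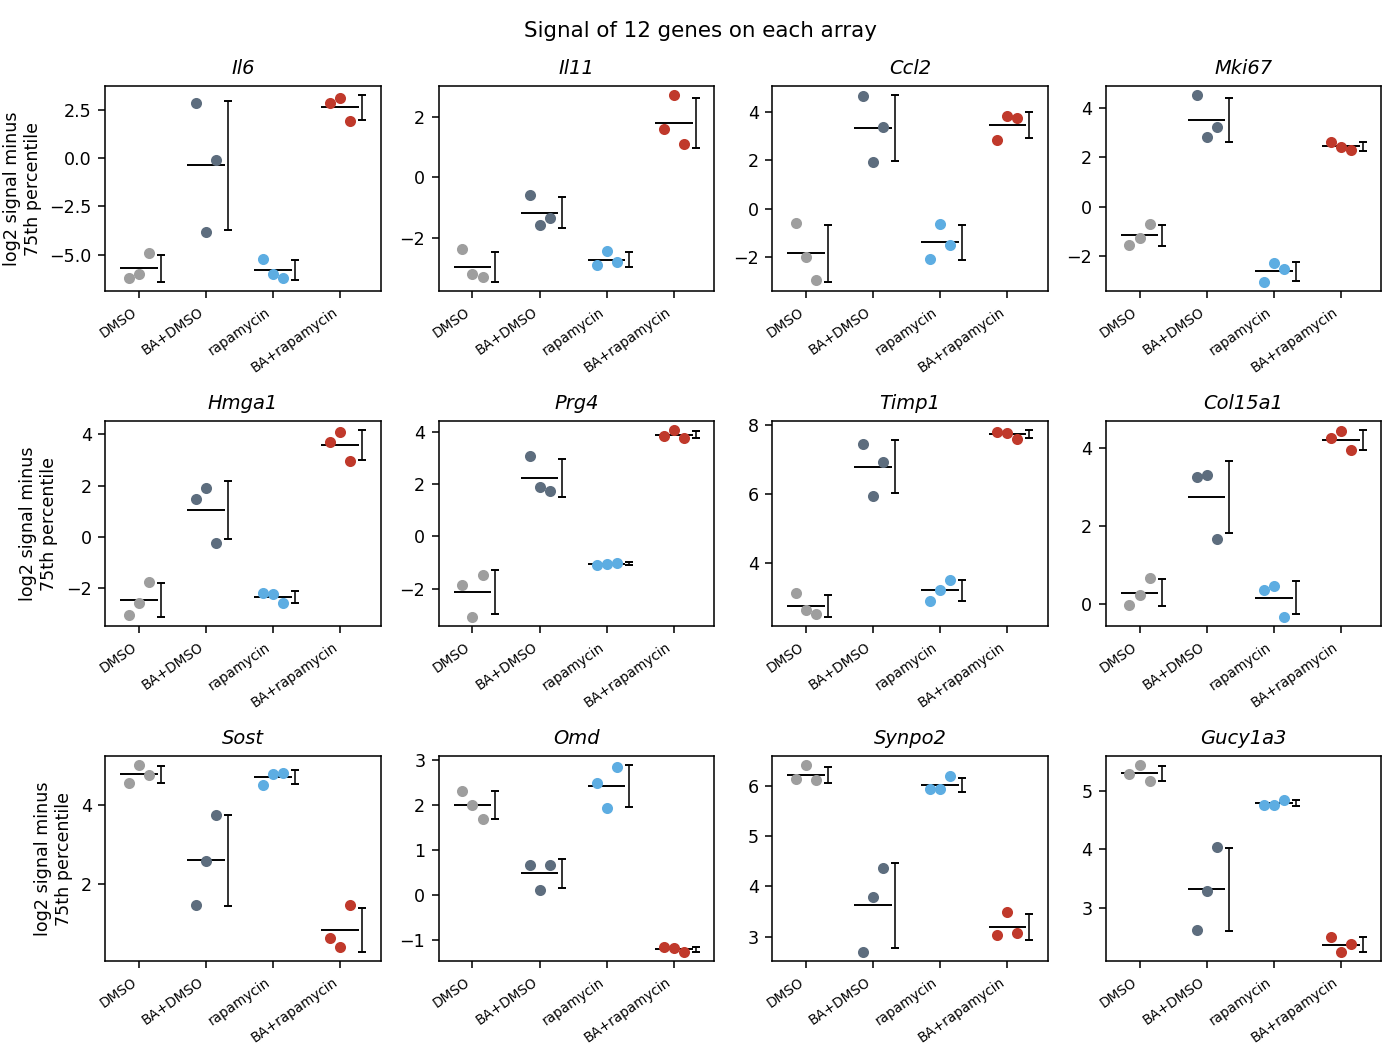
Level of 12 genes on each of the 12 arrays (vertical axis, log2 signal minus the array's 75th percentile), by group, with the group mean as a line and the SD as a bar beside the points. The BA+rapamycin arrays lie above the rapamycin arrays for the first 8 genes, by 4.55 for Il11, and below them for Sost, Omd, Synpo2 and Gucy1a3, by -2.82 for Synpo2.

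For several of the most changed transcripts the rapamycin arrays had no signal well above background, so the fold is a lower bound. Il6, the cytokine that signals through Stat3, was at -5.22, -5.99 and -6.23 on the rapamycin arrays, none of them above background, and at 2.84, 3.11 and 1.91 on the BA+rapamycin arrays. It rose by at least 104-fold (limma adjusted p 0.000967; probe at mm9 chromosome 5, 30346367 to 30346426). Spp1, which encodes osteopontin, a secreted matrix protein of macrophages and modulated smooth muscle, was at least 43.4-fold higher (adjusted p 0.000459) and reached 2.01, 1.18 and 0.88 on the BA+rapamycin arrays. Cthrc1, a secreted protein of activated fibroblasts in injured arteries, was at least 39.3-fold higher (adjusted p 0.00120), with 1.55, 1.38 and 0.97. In all 3 every challenged array was above its own 75th percentile, and with the brightness covariate all 3 were still called higher.

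A second set of large rises followed the brightness of the array over all 12 arrays. Among the 12 largest rises with signal on all 6 arrays, 8 were of this kind: Shank2 (6.12), Syn3 (5.57), Gbp6 (5.39), Zfhx2 (5.31), Mrgprg (4.91), Klra1 (4.89), Rabgap1 (4.86) and Tbx22 (4.81). Tbx22, a T-box transcription factor of the developing palate, was at 3.66, 3.11 and 2.03 on the rapamycin arrays and 7.34, 8.25 and 7.63 on the BA+rapamycin arrays. On the vehicle arrays it was at 7.24, 8.26 and 1.77 in BA+DMSO, where the third array has a 75th percentile of 246, and at 2.33, 4.07 and 5.18 in DMSO. The bright BA+DMSO array therefore sat by the unchallenged arrays, and below even the brightest of them, at 2.03. With the brightness covariate these 8 differences were -0.41 to -1.21, with none called, and Ncoa7 (at least 74.1-fold higher) and Defb28 (at least 26.6-fold higher) went to -0.98 and -0.11. Another tested probe of Gbp6 was called lower (-0.77), another of Rabgap1 was called higher (0.74), and those of Ncoa7 (-0.19) and Syn3 (0.63) were not called.

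**Figure D2:**
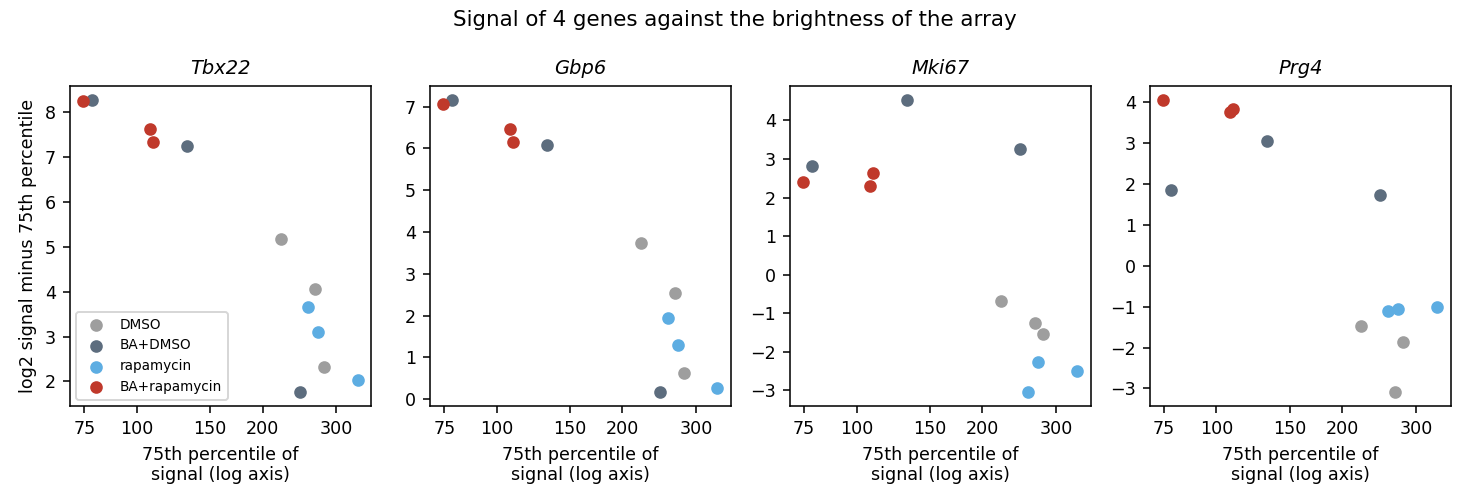
Level of Tbx22, Gbp6, Mki67 and Prg4 on each of the 12 arrays (vertical axis, log2 signal minus the array's 75th percentile) against that percentile (horizontal log axis, intensity units), coloured by group. Tbx22 and Gbp6 descend with brightness within each group, but the BA+DMSO array at 246 is the lowest of the 12 (1.77 and 0.18), below brighter arrays. Mki67 and Prg4 separate the challenged arrays from the others at every brightness, that BA+DMSO array included.

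The 12 largest falls among probes above background on all 6 arrays were in genes of mixed roles. Sost, which encodes sclerostin, an inhibitor of Wnt signalling made by bone and by aortic smooth muscle, was at 4.52, 4.81 and 4.83 on the rapamycin arrays and 0.63, 0.41 and 1.47 on the BA+rapamycin arrays. All BA+rapamycin arrays were far below all rapamycin arrays, and the difference was -3.88 (SE 0.47, limma adjusted p 0.000393). Kcnab1, a subunit of voltage-gated potassium channels, was at 4.30, 4.19 and 4.62 on the rapamycin arrays and 0.57, 0.57 and 0.40 on the BA+rapamycin arrays. Its difference was -3.86 (SE 0.42, limma adjusted p 0.000214). Gstm1, a glutathione transferase, fell by a similar amount, from 5.18 ± 0.020 to 1.41 ± 0.32 (mean ± SD, n = 3; limma adjusted p 7.46e-05). Omd, which encodes the matrix proteoglycan osteomodulin, was at 2.50, 1.94 and 2.85 on the rapamycin arrays and -1.15, -1.18 and -1.26 on the BA+rapamycin arrays. The groups were again far apart, with a difference of -3.63 (SE 0.26, limma adjusted p 6.12e-05). The related matrix protein Ecm2 differed by -3.44. Sparcl1, a secreted protein of the SPARC family, differed by -3.49. The other large falls were Bex4 (-3.68), Trp53inp1 (-3.62), a stress protein of autophagy, Emb (-3.62), Ccdc3 (-3.58), Unc5c (-3.44), a netrin receptor, and Tcap (-3.38), a protein of the sarcomere. With the brightness covariate all 12 stayed below 0, between -4.17 for Tcap and -1.60 for Emb, and 6 of them were still called, Kcnab1 (-2.38), Gstm1 (-3.22), Bex4 (-2.68), Omd (-3.01), Trp53inp1 (-2.90) and Ecm2 (-2.87).

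Falls below background are bounds as well. Abra, an actin-binding activator of serum response factor, was at least 7.82-fold lower (adjusted p 0.000645), and the noradrenaline receptor Adra1d at least 7.41-fold (adjusted p 0.000118). Phex, an endopeptidase of bone, was at least 6.21-fold lower, the BMP receptor Bmpr1b at least 5.74-fold, and Camta1 at least 5.26-fold. The second probe of Bmpr1b was also called lower.

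Among the 41 pathway lists, mitosis had the highest share of called members in 1 direction. Of 60 listed genes of mitosis, 44 were tested, and 34 of them (77.3%) rose, beside 18.9% of all probes, while 2 fell. 29 of the 44 were above background on all 6 arrays, and of these 21 rose and 2 fell. The others were tested because at least 1 of the 4 groups was above background on all its arrays, and a gene that passed only through challenged arrays could hardly be called lower, so the count over all 44 favours rises. The median difference over the 44 was 2.85, or 2.39 with undetected genes at their bound, beside -0.085 for all probes. The median of the list was 1.57 with normexp background correction and 4.03 with the brightness covariate. Of the 44, 30 were called higher with the brightness covariate and 27 within the second slide. The mean level over the list was -2.60 to -2.41 on rapamycin arrays and -0.076 to 0.22 on BA+rapamycin arrays.

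The promoters of the mitosis genes share sequence elements, shown here for 3 of the members. Genes that are expressed late in the cell cycle often carry a cell cycle homology region and CCAAT boxes, which bind the DREAM and MuvB complexes and the factor NF-Y. Each promoter below is 300 bases, 250 before and 50 after the start, read 5′ to 3′ on the strand of the gene from RefSeq on build GRCm38.p6, with capitals where TTTGAA or CCAAT occurs on either strand (TTCAAA and ATTGG read the other way; an overlap was allowed). Top2a lies at chr11:99024140-99024439 (minus strand), Mki67 at chr7:135716330-135716629 (minus strand) and Cdk1 at chr10:69352863-69353162 (minus strand).
Top2a: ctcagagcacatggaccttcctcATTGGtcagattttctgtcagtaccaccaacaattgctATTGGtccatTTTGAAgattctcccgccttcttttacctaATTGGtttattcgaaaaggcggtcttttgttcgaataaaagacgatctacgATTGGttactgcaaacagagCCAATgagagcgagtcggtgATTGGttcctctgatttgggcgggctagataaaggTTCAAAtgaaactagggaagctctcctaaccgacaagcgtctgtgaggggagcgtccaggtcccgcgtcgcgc
Mki67: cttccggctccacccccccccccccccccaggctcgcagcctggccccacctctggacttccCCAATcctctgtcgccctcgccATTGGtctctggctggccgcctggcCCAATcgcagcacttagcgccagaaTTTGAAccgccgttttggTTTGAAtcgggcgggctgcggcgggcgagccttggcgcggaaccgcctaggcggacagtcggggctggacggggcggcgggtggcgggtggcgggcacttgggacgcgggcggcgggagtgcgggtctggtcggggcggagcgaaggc
Cdk1: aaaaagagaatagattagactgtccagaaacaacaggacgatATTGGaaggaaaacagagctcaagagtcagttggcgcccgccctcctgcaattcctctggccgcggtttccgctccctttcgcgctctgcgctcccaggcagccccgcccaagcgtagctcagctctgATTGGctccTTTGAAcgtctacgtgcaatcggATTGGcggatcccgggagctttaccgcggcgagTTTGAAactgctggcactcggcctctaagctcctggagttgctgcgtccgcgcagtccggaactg
Of the 34 members that rose, 28 had a promoter in the table. A gene was counted if any of its promoters of this length held the letters. TTTGAA occurred in 21 of these (75%), beside 20.2% of all 27025 genes with such a promoter. CCAAT occurred in 20 (71.4%), beside 41.1%. Both occurred in 1 promoter in 18 (64.3%), beside 7.97%. Of the 9 other tested members with a promoter, 5 held TTTGAA, 6 held CCAAT and 4 held both, so these letters are shared by the list and not only by the members that rose.

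Top2a, the topoisomerase that untangles chromosomes, was below background on all rapamycin arrays (-5.98, -6.14 and -6.30) and above it on all BA+rapamycin arrays (-1.56, -1.38 and -1.99), at least 5.41-fold higher (limma adjusted p 0.00169). Iqgap3 and Pbk, both of dividing cells, were at least 5.21-fold and 5.33-fold higher. Ccna2, which encodes cyclin A2, was at -4.88, -3.41 and -3.34 on the rapamycin arrays and 0.95, 0.43 and 0.59 on the BA+rapamycin arrays, with 2 of 3 rapamycin arrays above background. Its groups were more than 3 log2 units apart, and the difference was 4.53 (SE 0.56, limma adjusted p 0.000408). Cdk1, the kinase that starts mitosis, was detected on no rapamycin array and 2 of 3 BA+rapamycin arrays and was at least 3.21-fold higher (adjusted p 0.00110). Birc5, which encodes survivin of the chromosomal passenger complex (4.04), the kinesin Kif22 (3.59), the kinetochore kinesin Cenpe (3.58), the mitotic kinases Aurka (3.32) and Plk1 (2.84), and the anaphase activator Cdc20 (2.84) were detected on all 6 arrays and rose. Pttg1, which encodes securin, went the other way, from 5.23 ± 0.11 to 3.46 ± 0.091 (mean ± SD, n = 3). This difference was -1.77 (SE 0.26, limma adjusted p 0.000930). Anln, which encodes the cytokinesis protein anillin, also fell (-1.45, adjusted p 0.00953).

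Fewer genes of DNA synthesis were called. Of 36 tested, 13 rose and 2 fell, with a median of 0.37. With the brightness covariate 13 were called higher and 0 lower, and the median was 1.17. Uhrf1, which carries DNA methylation through replication, was at -1.98, -1.99 and -2.15 on the rapamycin arrays and 1.38, 1.26 and 1.65 on the BA+rapamycin arrays. The difference was 3.47 (SE 0.38, limma adjusted p 0.000232). Thymidine kinase Tk1 (3.00) and Rrm2, a subunit of ribonucleotide reductase (2.41), rose too, and Mcm10, undetected in rapamycin, was at least 6.51-fold higher. Of the helicase subunits Mcm5 rose (1.53), and Mcm2 (0.82), Mcm3 (0.67), Mcm4 (-0.53), Mcm6 (-0.41) and Mcm7 (0.29) did not pass the test, nor did the sliding clamp Pcna (-0.57). Pola1, a subunit of DNA polymerase alpha (-1.42), and Rpa1, a subunit of the single-strand binding protein (-0.64), fell. Among regulators of G1, 7 of 26 rose and 5 fell. E2f2 (2.70), cyclin E1 (Ccne1, 2.48), the inhibitor Cdkn2a (1.92, above background on 1 of 3 rapamycin and 2 of 3 BA+rapamycin arrays), Myc (1.84) and cyclin D1 (Ccnd1, 1.17) rose, cyclin D2 (Ccnd2, -1.49) and the inhibitor Cdkn1c (-1.28) fell, and cyclin D3 (Ccnd3) differed by -0.21 (adjusted p 0.270), while its second probe was called lower (-0.66).

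**Figure D3:**
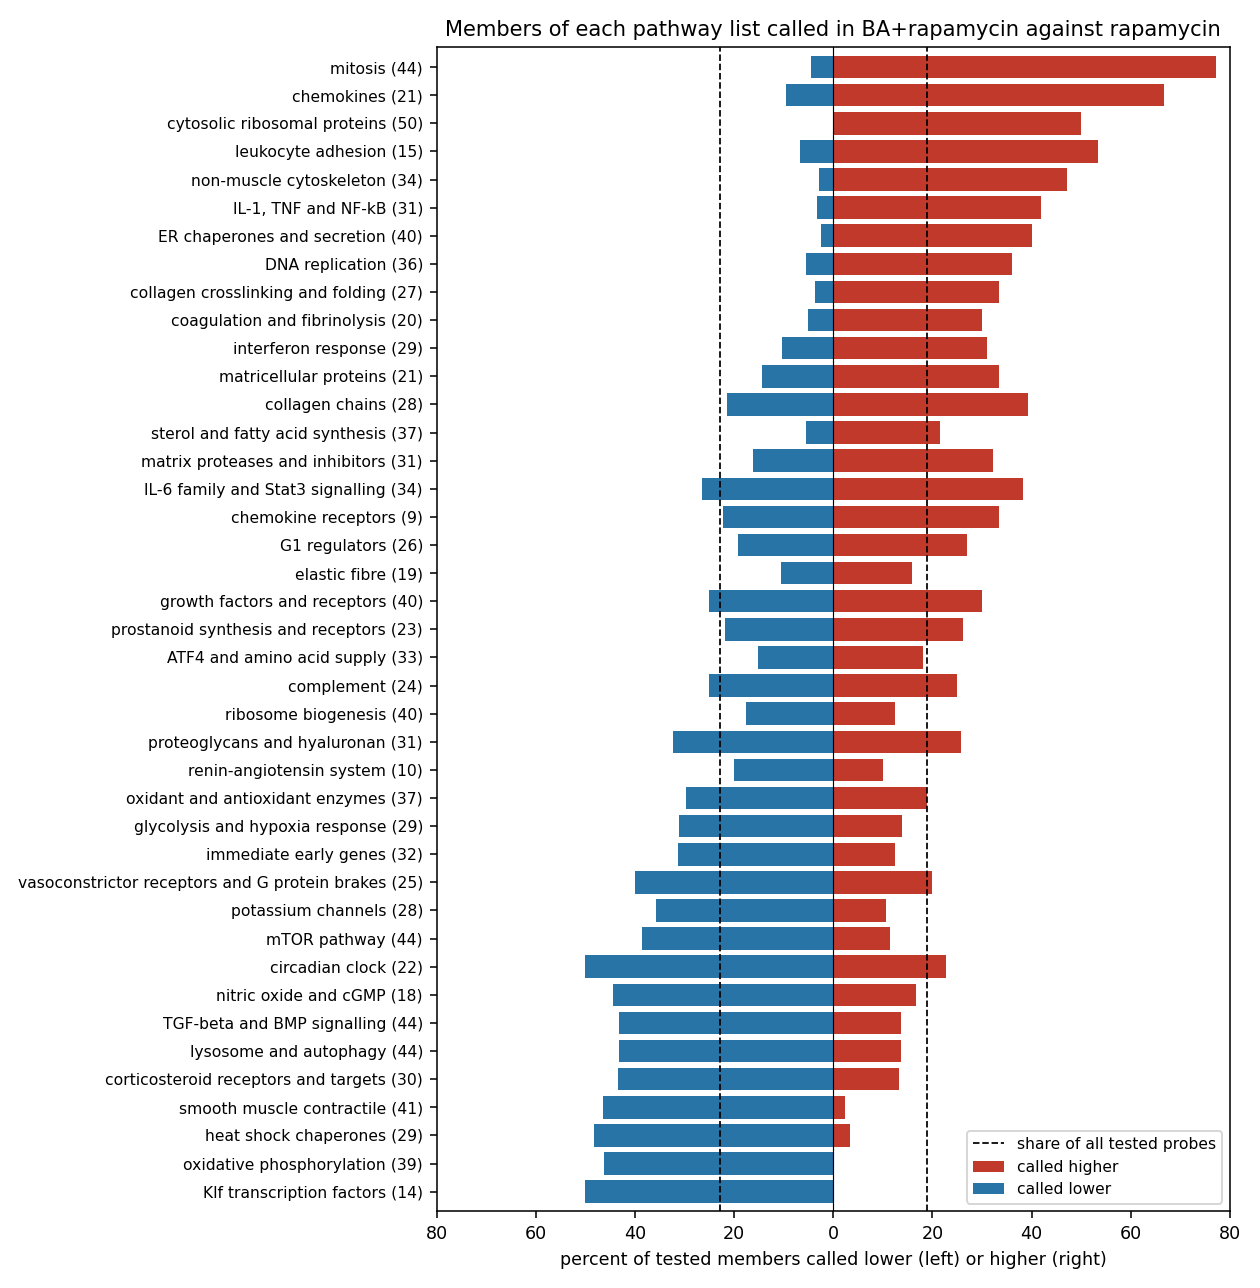
Percent of the tested members of each of 41 pathway lists that were called higher (to the right) or lower (to the left) in BA+rapamycin against rapamycin, with the number tested in brackets and dashed lines at the shares of all tested probes, 18.9% and 22.9%. Mitosis reaches 77.3% on the right and heat shock chaperones 48.3% on the left.

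Inflammatory signals were raised in mice on the drug. Of 34 chemokine ligands listed, 21 were tested, and 14 of them rose and 2 fell, with a median of 1.21. Of the 17 above background on all 6 arrays, 12 rose and 2 fell. As in the mitosis list, a member tested only through challenged arrays could hardly be called lower. With the brightness covariate 6 were called higher. Beside Ccl2, the monocyte chemokines Ccl7 and Ccl12 were among the largest changes. Ccl7 was at -2.38, -1.0 and -2.24 on the rapamycin arrays and 2.48, 3.26 and 2.90 on the BA+rapamycin arrays, a difference of 4.75 (SE 0.71, limma adjusted p 0.00107), and Ccl12 differed by 3.50. Cxcl14, a chemokine of epithelia and fibroblasts, was above background on 1 of 3 rapamycin arrays and on all BA+rapamycin arrays, where it reached 1.57, 1.78 and 1.51. It differed by 6.50 (SE 0.47, limma adjusted p 6.21e-05). Ccl6 (2.42), Ccl9 (2.26) and Ccl8 (2.22) rose as well. Cxcl12, which retains leukocytes, differed by 0.12 (adjusted p 0.858). Among 9 tested receptors, 3 rose and 2 fell. The monocyte receptor Ccr2 was at -3.11, -3.51 and -3.27 on the rapamycin arrays and 1.48, 0.67 and 0.81 on the BA+rapamycin arrays. Its difference was 4.28 (SE 0.62, limma adjusted p 0.000930), and Cx3cr1 rose (2.71). The atypical receptor Ccrl2 fell (-2.03), as did Ccrl1 by both its probes (-2.31 and -1.38).

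The interleukin-6 family of cytokines acts through receptors that share the subunit gp130, encoded by Il6st, and activates the transcription factor Stat3. Its ligands moved in both directions. Il11 was at -2.92, -2.46 and -2.82 on the rapamycin arrays and 1.60, 2.74 and 1.1 on the BA+rapamycin arrays. The groups were separated by more than 3 log2 units, and the difference was 4.55 (SE 0.42, limma adjusted p 0.000108). Lif, undetected in rapamycin, was at least 7.53-fold higher (adjusted p 0.00326). The ligand Clcf1 rose by 1.50, while Ctf1, which encodes cardiotrophin 1, fell (-1.20) and Cntf, ciliary neurotrophic factor, did not pass the test (0.24, adjusted p 0.456). Of the receptors, Osmr (1.16) and Il6ra (1.30) rose, while Il6st (-0.80) and Lifr (-1.08 by 1 of 3 probes) fell. Downstream, Stat3 (1.11), its feedback inhibitor Socs3 (1.69), Pim1 (0.95) and Bcl3 (2.69) rose. Of the Jak kinases, Jak3 rose (1.38) and Jak2 fell (-0.76). A second probe of Stat3 was not called (0.32). In the whole list of 34, 13 rose and 9 fell, with a median of 0.22.

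In the list of IL-1, TNF and NF-kB, 13 of 31 rose and 1 fell. Saa3, an acute phase protein made locally in inflamed tissue, was at -5.76, -3.69 and -3.73 on the rapamycin arrays and 1.57, -0.06 and 0.58 on the BA+rapamycin arrays, with 2 of 3 rapamycin arrays above background. Its difference was 5.09 (SE 0.65, limma adjusted p 0.000485). Lcn2, an iron-binding protein of the innate response (2.81), Tnfrsf11b, the decoy receptor osteoprotegerin (2.65), and the alarmin Il33 (1.91) rose. Tnfaip3, a brake on NF-kB, fell (-0.63), and the subunit Rela differed by -0.38 (adjusted p 0.0719). Of adhesion molecules of leukocytes and endothelium, 8 of 15 rose, among them the leukocyte integrin chains Itgb7 (2.20), Itgb2 (1.96) and Itgam (1.92) and the platelet and endothelial selectin Selp (1.11), and Vcam1 did not pass the test by 1 probe (0.43, adjusted p 0.238) and was called higher by another (0.76). Interferon-stimulated genes were mixed, with 9 of 29 higher, such as Rsad2 (1.84), Oas2 (1.78) and Oas1a (1.72), and 3 lower, Ifit2 (-0.84) among them. In the complement list, 6 of 24 rose and 6 fell. The receptor C5ar1 (2.17), properdin (Cfp, 2.02) and C4b (1.73) rose. The collectin Colec11, above background on 1 of 3 BA+rapamycin arrays, went from 1.02, 1.17 and 0.94 to -2.82, -3.05 and -1.52, a difference of -3.51 (SE 0.32, limma adjusted p 0.000108).

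Markers of macrophages rose with these signals. Of 24, 14 rose, with a median of 1.27 (2.24 with the brightness covariate), and the mean level over the list was 0.72 to 1.14 on rapamycin arrays and 2.21 to 2.28 on BA+rapamycin arrays. With the brightness covariate 8 were called higher. Fcgr1 (2.42), the scavenger receptor Msr1 (2.33, 2 of 3 rapamycin arrays above background), Cd68 (1.60), Aif1, which encodes Iba-1 (1.67), and Csf1r, the receptor for colony stimulating factor (1.21) rose. Mertk, a receptor for the uptake of dead cells, fell (-1.20), and markers of resident macrophages did not pass the test, with Lyve1 at 0.17 and Mrc1 at 0.96. Gpnmb, a glycoprotein of lysosome-rich macrophages, was at least 4.47-fold lower (adjusted p 0.000846).

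Other cell types differed in how many of their markers were called. Of 16 neutrophil markers, 7 were tested and 2 rose, Csf3r (1.32) and Elane (0.99), while S100a8 (0.19), S100a9 (0.25) and Ly6g (0.55) did not pass the test. The mean level of the list was 0.47 to 0.70 in rapamycin and 0.62 to 1.54 in BA+rapamycin. Of 14 tested T and B cell genes, 4 rose, including Cd22 (2.11) and Cd3e (1.36), 2 fell, Cd5 by at least 1.31-fold, and the ranges of the mean overlapped (-2.71 to -1.66 and -2.04 to -1.49). Erythroid genes rose in 6 of 10 cases, with a mean of 1.87 to 2.70 and 3.48 to 3.84, and the synthetic enzyme of heme Alas2 differed by 2.16, the membrane transporter Slc4a1 by 1.95 and the globin Hba-a2 by 1.87. The level of erythroid RNA thus moved with the challenge, and its part in the leukocyte results was not tested. Endothelial genes (6 of 23 higher, 2 lower) had mean levels of 2.32 to 2.62 in rapamycin and 2.48 to 3.35 in BA+rapamycin, where replicate 3 was the highest and the other arrays overlapped, with the VEGF receptor Kdr (1.73) and Plvap (1.08) higher and the angiopoietin receptor Tek (-0.99) and Pecam1 (-0.87) lower. Fibroblast genes (3 higher and 3 lower of 18) had overlapping mean levels, 3.81 to 4.01 and 3.84 to 4.0, with Thy1 (2.37) and Pi16 (1.66) higher and Clec3b lower (-1.56).

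Markers of the tissues that surround the aorta varied between the mice. The mesothelial and epithelial list, with 12 of 15 tested, had no called member in limma, and its mean ranged from -2.43 to -0.027 among the BA+rapamycin mice, wider than in rapamycin (-1.82 to -1.22). White adipocyte genes (1 of 17 higher, 4 lower) had mean levels of 0.77 to 2.54 in BA+rapamycin and 0.80 to 1.85 in rapamycin. The median difference over this list was 0.78, with 9 of 17 members above 0, and it was -0.34 with the brightness covariate. The lipid droplet protein Plin4 (-1.67), Lpin1 (-1.58) and Acsl1 (-1.55) fell, and Adipoq differed by 1.67 (adjusted p 0.176). Striated muscle genes went both ways (6 higher and 7 lower of 29). The skeletal troponin Tnni2 rose (2.65), Tcap fell, and Casq1 (-3.01) and Mybpc2 (-2.94), each above background on 1 of 3 BA+rapamycin arrays, fell. The brown adipocyte (2 higher, 4 lower of 12, with Cidea at -2.61, Dio2 at 1.73 and Cpt1b at 1.73), nerve (3 and 3 of 14, with Ncam1 at -2.17), MHC class II (1 and 0 of 10, H2-DMb1 at 1.01) and mast cell (1 and 0 of 6, Hdc at least 2.65-fold with 1 of 3 BA+rapamycin arrays above background) lists were near the background shares or too short to read against them.

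**Figure D4:**
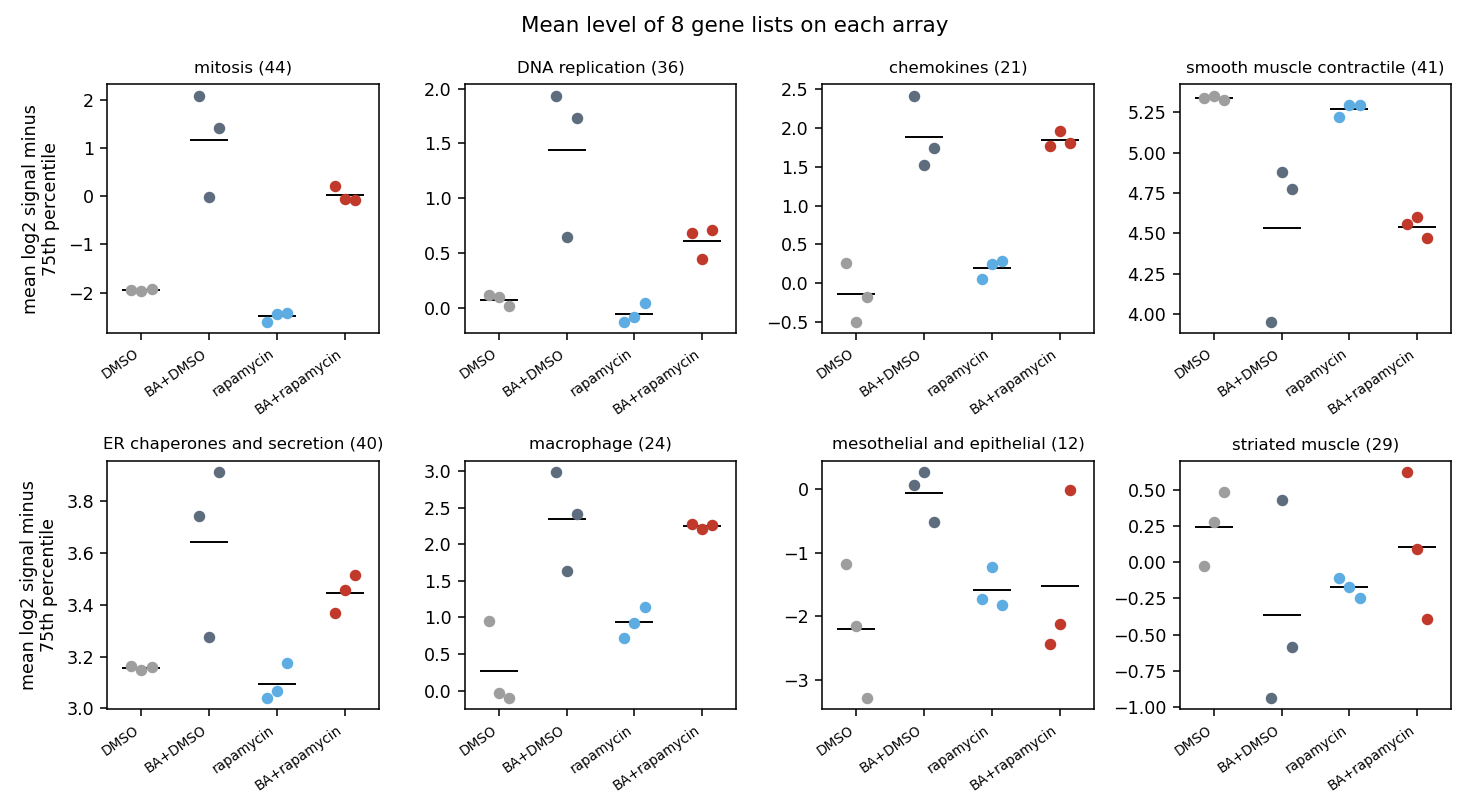
Mean level over the tested members of 8 lists on each array (vertical axis, log2 signal minus the array's 75th percentile; number of genes in brackets), with the group mean as a line. The BA+rapamycin arrays lie above the rapamycin arrays for mitosis, DNA replication, chemokines, ER chaperones and macrophage genes and below them for smooth muscle genes (4.47 to 4.60 against 5.22 to 5.29), and the groups overlap for the mesothelial and striated muscle lists.

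Matrix genes rose in several groups. Of 28 collagen chains tested, 11 rose and 6 fell, with a median of 0.42 (0.24 with normexp). Among the 24 above background on all 6 arrays, 11 rose and 3 fell. Of the fibrillar chains, Col1a1 was at 6.98, 7.01 and 6.46 on the rapamycin arrays and 8.32, 8.53 and 8.33 on the BA+rapamycin arrays, a difference of 1.57 (SE 0.26, limma adjusted p 0.00180), and Col3a1 (1.48), Col1a2 (0.96) and Col5a1 (0.76) rose too. Some other chains had larger changes. Col15a1, of the basement membrane zone, was at 0.36, 0.46 and -0.34 on the rapamycin arrays and 4.25, 4.42 and 3.93 on the BA+rapamycin arrays. Its difference was 4.04 (SE 0.41, limma adjusted p 0.000148), and its other 2 tested probes were not called, the lower of them at 0.42. Col8a1, a network collagen of migrating smooth muscle, differed by 3.79 (SE 0.56, limma adjusted p 0.00105), and Col12a1 by 1.88. Among chains of the basement membrane, Col4a5 (-1.15) and Col4a6 (-0.87) fell, and the main pair Col4a1 (0.25) and Col4a2 (0.24) did not pass the test.

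Of 27 genes for the folding, modification and crosslinking of collagen, 9 rose and 1 fell, and the median of 0.16 was -0.038 with normexp. Lox, the enzyme that BAPN inhibits, was at 2.13, 1.89 and 1.89 on the rapamycin arrays and 2.92, 3.46 and 2.78 on the BA+rapamycin arrays. Every challenged array was above every rapamycin array, but the difference of 1.08 did not pass the test (SE 0.43, limma adjusted p 0.0655), while a second probe was called higher at 1.32. Its relatives Loxl2 (1.39) and Loxl4 (1.43) rose, and Loxl1 (-0.055) and Loxl3 (-0.17) did not pass. The lysyl hydroxylase Plod2 (1.62), the prolyl hydroxylase P4ha3 (1.50), the collagen chaperone Serpinh1 (0.89) and the procollagen proteinase Bmp1 (1.20) rose. Elastin (Eln) differed by -0.0091 (adjusted p 0.986), and by 1.50 with the brightness covariate (adjusted p 0.0357). Of 19 elastic fibre genes tested, Ltbp2 (2.51), Fbln2 (2.44) and Efemp2 (0.58) rose and Fbln5 (-1.35), which tethers elastic fibres to cells, and Ltbp4 (-0.82) fell.

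Among enzymes that remodel the matrix and their inhibitors, the largest change was a rise of an inhibitor. Timp1, the tissue inhibitor of metalloproteinases, was at 2.88, 3.20 and 3.49 on the rapamycin arrays and 7.82, 7.79 and 7.60 on the BA+rapamycin arrays. Its BA+rapamycin arrays lay close together, and the difference was 4.55 (SE 0.34, limma adjusted p 6.31e-05). Adamts4, a protease of versican and aggrecan (3.04), Adam8 (2.75), Adam12 (2.50) and the membrane metalloproteinase Mmp14 (1.70) rose. Timp4 (-2.51, 2 of 3 BA+rapamycin arrays above background) and Serpine2 (-1.84) fell. Mmp2 differed by -0.083 (adjusted p 0.827). In all, 10 of 31 rose and 5 fell, and 7 were called higher with the brightness covariate. Of the matricellular proteins, which regulate cells without bearing load, 7 of 21 rose and 3 fell, Sparcl1 (-3.49) among the falls. Their median of 0.41 was -0.24 in the quantile-normalized deposited matrix. Tenascin C (Tnc) was at -0.50, 0.18 and -0.99 on the rapamycin arrays and 2.46, 2.99 and 2.23 on the BA+rapamycin arrays. The difference was 3.00 (SE 0.30, limma adjusted p 0.000152), and Wisp1 (2.24) and Thbs1 (1.74) rose too. Fibronectin (Fn1, 0.41), periostin (Postn, 0.30) and Ctgf (0.65) did not pass the test.

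Several small leucine-rich proteoglycans fell and 2 hyaluronan synthases rose. Ogn (-2.84), Fmod (-2.51) and Prelp (-0.94) fell beside Omd. The members Dcn (-0.42), Lum (0.40) and Bgn (-0.28) did not pass the test. Has1 was at -3.00, -2.78 and -2.74 on the rapamycin arrays and 1.1, 2.68 and 1.24 on the BA+rapamycin arrays. Its BA+rapamycin arrays were all higher but uneven, and the difference was 4.51 (SE 0.85, limma adjusted p 0.00302). Has2 rose (2.18), the hyaluronidase Hyal1 fell (-2.68), and the hyaluronan receptor Cd44 rose (1.61). The probes of versican (Vcan) were called in opposite directions, -1.26 and 0.64. The list as a whole had 8 higher and 10 lower of 31.

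The contractile programme of smooth muscle was lower in part. Of 41 genes tested, 19 (46.3%) fell, beside 22.9% of all probes, and 1 rose. The median was -0.75, and -0.66 with the brightness covariate, under which 1 member was called lower. Synpo2, an actin-bundling protein of the dense body, was at 5.93, 5.94 and 6.18 on the rapamycin arrays and 3.03, 3.49 and 3.08 on the BA+rapamycin arrays. Its difference was -2.82 (SE 0.34, limma adjusted p 0.000385). Itga8, an integrin of differentiated smooth muscle, was at 7.72, 7.65 and 7.94 on the rapamycin arrays and 5.56, 5.89 and 5.35 on the BA+rapamycin arrays. The groups were again apart, and the difference was -2.17 (SE 0.32, limma adjusted p 0.000989). Lmod1, which nucleates actin filaments, differed by -1.89. Desmin (Des, -1.79), the tropomyosins Tpm1 (-1.66 by 1 of 6 probes, the other 5 not called) and Tpm2 (-1.25), and the factors that drive the programme, Srf (-1.54 by 1 of 2 probes) and Myocd (-0.97), fell. Other members gave no such call. Acta2 (0.52, adjusted p 0.0707), Myh11 (-0.053, adjusted p 0.938) and Cnn1 (-0.14, adjusted p 0.695) did not pass the test, and Acta2 was at -0.62 in the deposited matrix. Tagln, an actin-binding protein, was called higher by 1.05 (SE 0.28, adjusted p 0.0130) but was at -0.19 in the deposited matrix.

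Serum response factor binds the CArG box, and its own promoter (chr17:46556113-46556412 (minus strand), RefSeq on GRCm38.p6, same window) holds such boxes, in capitals here.
Srf: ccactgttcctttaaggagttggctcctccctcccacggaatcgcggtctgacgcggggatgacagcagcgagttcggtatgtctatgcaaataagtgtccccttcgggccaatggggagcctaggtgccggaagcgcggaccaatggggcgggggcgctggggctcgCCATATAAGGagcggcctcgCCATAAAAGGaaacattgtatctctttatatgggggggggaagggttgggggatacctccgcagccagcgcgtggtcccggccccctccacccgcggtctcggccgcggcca
Of the 19 contractile genes that fell, 15 had a promoter in the table, and 2 of these (13.3%) held a CArG box on either strand. So did 4 of the 18 other tested members with a promoter and 1.81% of all genes with a promoter. By the same count the NF-kB site was in 1 of 9 promoters of chemokines that rose and 3 of 11 of interleukin-6 family genes that rose. It was in 9.55% of all genes with a promoter. Of the other tested members with a promoter, 2 of 5 chemokines and 2 of 16 interleukin-6 family genes held it.

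Genes of the non-muscle cytoskeleton were more often higher. Of 34 tested, 16 rose and 1 fell, with a median of 0.54 that was 0.20 in the deposited matrix, where 10 were called higher. Fscn1, the actin bundler of migrating cells (3.45), the leukocyte plastin Lcp1 (2.28), profilin (Pfn1, 1.60), Tmsb10 (1.38) and beta-actin (Actb, 1.27) rose. Of the non-muscle myosins, Myh9 rose (1.07) and Myh10, the embryonic form SMemb, fell (-1.55, adjusted p 0.00108).

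Receptors and effectors of vessel tone changed in both directions. In the list of vasoconstrictor receptors and their brakes, 10 of 25 fell and 5 rose, and 2 were called lower with the brightness covariate. Of the 15 members above background on all 6 arrays, 4 fell and 5 rose, so the larger count of falls rests on members that some arrays did not detect. Beside Adra1d, the noradrenaline receptor Adra2a (-3.39, 1 of 3 BA+rapamycin arrays above background), the pericyte and smooth muscle brake Rgs5 (-2.66), the neuropeptide Y receptor Npy1r (-1.84) and the thromboxane receptor Tbxa2r (-1.60) fell, and Arrb2, which desensitises such receptors, rose (1.25). Agtr1a, the receptor through which the infused AngII acts, was above background on all rapamycin arrays and on no BA+rapamycin array, and it did not pass the test (adjusted p 0.0876). Soluble guanylate cyclase, which makes cyclic GMP in response to nitric oxide, was lower in both subunits. Gucy1a3 was at 4.75, 4.75 and 4.84 on the rapamycin arrays and 2.49, 2.24 and 2.37 on the BA+rapamycin arrays. Replicates were tight and the groups far apart, with a difference of -2.41 (SE 0.28, limma adjusted p 0.000332). Gucy1b3 differed by -2.33 (SE 0.28, limma adjusted p 0.000339). The kinase downstream, Prkg1 (-2.17), and the natriuretic peptide receptor Npr1 (-1.64) fell, and Ddah1, which breaks down an inhibitor of nitric oxide synthase, rose (2.79). The endothelial synthase Nos3 differed by 0.67 (adjusted p 0.104). In this list 8 of 18 fell and 3 rose, and 2 were called lower with the brightness covariate.

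Of 28 potassium channel genes tested, 10 fell and 3 rose, and the median of -0.31 was 0.31 with normexp background correction. Of the 28, 0 were called in either direction with the brightness covariate and 2 were called lower within the second slide. Kcnc4, a fast voltage-gated channel, was at 1.88, 1.77 and 1.46 on the rapamycin arrays and -2.83, -4.50 and -2.68 on the BA+rapamycin arrays, with 1 of 3 BA+rapamycin arrays above background. Its difference was -5.04 (SE 1.06, limma adjusted p 0.00499). Kcnma1, the pore of the large-conductance channel of smooth muscle, fell (-1.84), and Kcnq5 was at least 1.07-fold lower. Kcnn4, the intermediate-conductance channel of proliferating cells, rose (1.14).

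Growth factor pathways changed at the level of ligands and receptors. In TGF-beta and BMP signalling, 19 of 44 fell and 6 rose, with a median of -0.52. Of the 44, 3 were called lower and 2 higher with the brightness covariate, with a median of -0.19, and within the second slide 6 were called lower. Ligand Tgfb1 rose (0.67), and the receptors Tgfbr1 (-1.01), Tgfbr2 (-1.02, a second probe called higher at 1.41), Tgfbr3 (-1.24) and Bmpr1a (-1.95) fell. Smad9 was at -0.40, -0.36 and -0.37 on rapamycin arrays and undetected on the BA+rapamycin arrays, at least 4.99-fold lower (adjusted p 0.00124). Smad1 (-1.29), Smad5 (-0.65) and the inhibitory Smad7 (-1.26) fell, and Smad2 (-0.60) and Smad3 (0.17) did not pass the test. The targets of BMP signalling Id1 (-1.93), Id2 (-1.83) and Id4 (-2.83, 2 of 3 BA+rapamycin arrays above background) fell, and the secreted inhibitors Nog (2.16) and Fst (1.62) and the BMP modulator Bmper (2.54) rose. Among growth factors and receptors 12 of 40 rose and 10 fell. Igf1 (3.13), the protease Pappa2 (2.63), which frees it from binding proteins, and Fgf18 (2.59) rose, the EGF family ligand Btc was at least 1.36-fold lower, and Pdgfd (-1.51) and the IGF receptor Igf1r (-0.73) fell.

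The pathway of the drug's own target was lower more often than higher. Of 44 genes, 17 (38.6%) fell and 5 rose, with a median of -0.46. With the brightness covariate the median was -0.094 and 1 member was called lower. Mtor was at 0.30, 0.24 and 0.44 on the rapamycin arrays and -0.90, -0.99 and -1.09 on the BA+rapamycin arrays. The groups did not overlap, the difference was -1.32 (SE 0.25, limma adjusted p 0.00296), and a second probe was at -1.13 but not called. Rptor (-0.51) and Rictor (-0.52), which define the complexes of the kinase, fell by less. Fkbp1a, which encodes FKBP12, the protein that rapamycin must bind, rose by 1.50 (SE 0.30, limma adjusted p 0.00412). The stress brakes Sesn3 (-1.99, 2 of 3 BA+rapamycin arrays above background), Sesn1 (-1.48) and Ddit4 (-1.41) and the effector kinase Sgk1 (-1.84) fell, while Pdcd4 (2.12), an inhibitor of translation, and Grb10 (1.92), an inhibitor of insulin signalling stabilised by mTOR, rose. Rps6kb1, the S6 kinase, differed by 0.21 (adjusted p 0.357), with 1 of its 3 probes called lower at -0.70, and Eif4ebp1 by 0.33 (adjusted p 0.129).

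Cytosolic ribosomal proteins, whose translation depends on mTOR, gave a result that turned with the scaling. Of 50, 25 were called higher and 0 lower, with a median of 0.41, but in the deposited matrix 0 were higher and 8 lower with a median of -0.22, and with normexp 5 were higher with a median of -0.020. Rplp0, the largest single change, was at 8.33, 8.55 and 8.49 on the rapamycin arrays and 9.41, 9.52 and 9.38 on the BA+rapamycin arrays. Rpl12 (0.94) and Rpl28 (0.91) were next, and no direction is given for the group. Genes that build ribosomes (5 higher and 7 lower of 40) and the ATF4 programme of amino acid supply (6 and 5 of 33) were near or below the background shares. In the former Rrp1b rose (1.65) and Nop14 (-1.61) and Nop10 (-1.11) fell. In the latter the serine enzyme Psat1 (2.22) and asparagine synthetase Asns (1.95) rose and Cbs (-3.19), of the transsulfuration pathway, and Vldlr (-2.38) fell.

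Genes of the secretory pathway were more often higher. Of 40 genes of the endoplasmic reticulum, 16 rose and 1, the sensor Atf6 (-0.93), fell, and 15 were called higher with the brightness covariate, but with normexp background correction 6 were higher and 6 lower. The median over the list was 0.50, and the rises included Sdf2l1 (1.66), Tmed3 (1.04), the chaperone BiP (Hspa5, 0.88), Calr (0.86) and Pdia4 (0.84). In sterol and fatty acid synthesis 8 of 37 rose and 2 fell. Elovl6 (1.39), Fdps (1.34) and Mvd (1.24) rose, and Insig2, which holds the sterol sensor in place, fell (-1.69).

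Mitochondrial and lysosomal genes were more often lower, but not with array brightness in the model. Of 39 subunits of oxidative phosphorylation, 18 fell and 0 rose, with Ndufs8 (-1.23), Uqcrc1 (-1.0) and Ndufa10 (-0.99) the furthest and a median of -0.55. Within the second slide 0 were called, and with the brightness covariate 0 were called and the median was 0.19. In the lysosome and autophagy list 19 of 44 fell, including Atp6v1a of the proton pump (-1.67), Map1lc3b of the autophagosome (-1.35), the cargo receptor Sqstm1 (-1.31, a second probe not called at 0.78) and the regulator Mitf (-1.33), and 6 rose, including the leukocyte cathepsin Ctss (2.00). The median was -0.44, and 0.15 with the brightness covariate. Glycolysis and the hypoxia response had 4 higher and 9 lower of 29, with the vasodilator peptide Adm (-2.45) and Bnip3 (-1.67) lower and the oxygen sensor Egln3 at least 1.41-fold lower. Its median of -0.38 was 0.34 with the brightness covariate. Of oxidant and antioxidant enzymes, 11 of 37 fell, with Nox4 (-2.75), the oxidase of smooth muscle, and Nqo1 (-2.42), and 7 rose, among them catalase (Cat, 2.82, a second probe not called at -0.24) and Ncf4 (2.75), Ncf1 (2.00) and Cybb (1.27) of the phagocyte oxidase.

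**Figure D5:**
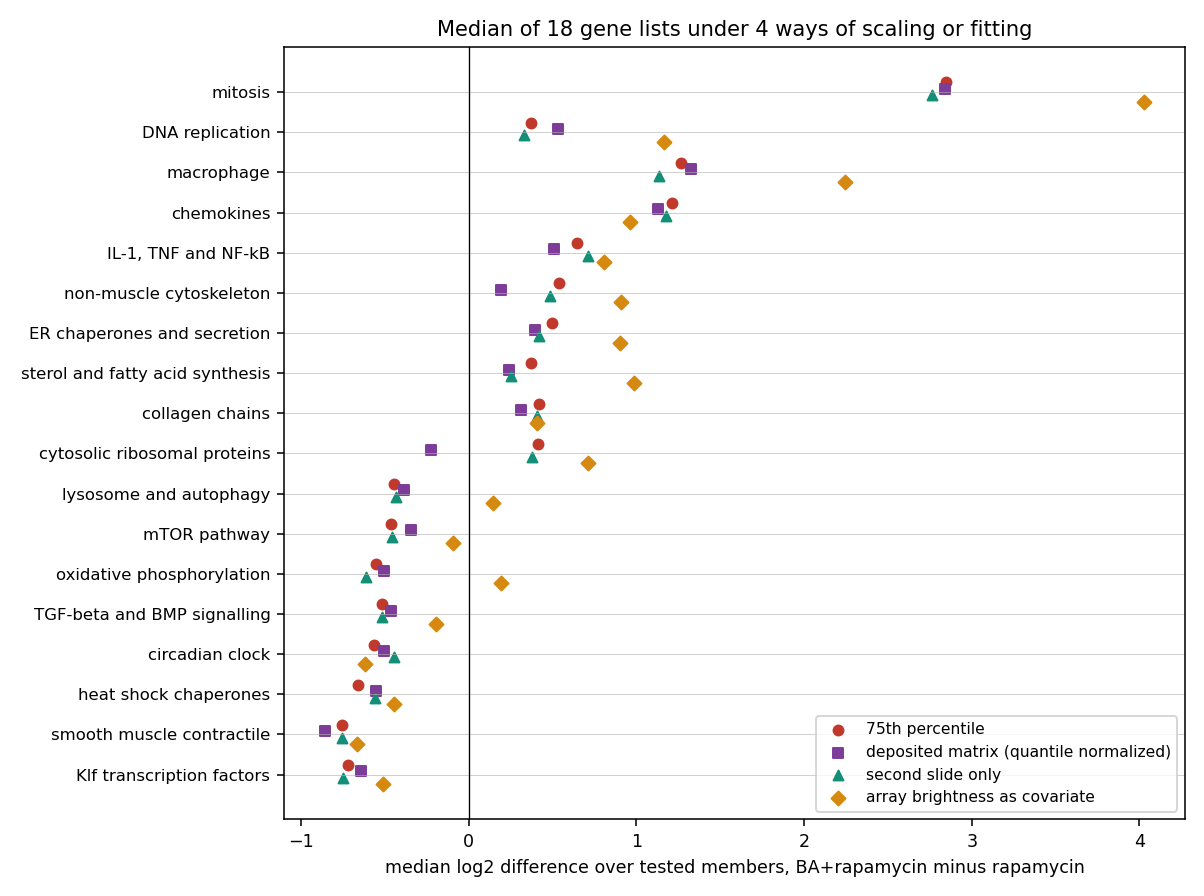
Median log2 difference over the tested members of 18 lists (horizontal axis, BA+rapamycin minus rapamycin) under 4 ways of scaling or fitting. Mitosis stays at 2.76 or above in the 4 shown (normexp, not drawn, gives 1.57), while cytosolic ribosomal proteins change sign in the deposited matrix and the lists of the lysosome and of oxidative phosphorylation with the brightness covariate.

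Many regulators that respond to stress, hormones and the time of day fell. Of 29 heat shock chaperones, 14 (48.3%) fell, with Hspa1a (-3.20) and Hspa2 (-2.91) the furthest and the small chaperone Hspb8 at -1.50. Of the 29, 2 were called lower with the brightness covariate and 3 within the second slide. The constitutive Hspa8 was called higher by 1 of its 3 probes (0.61, and -0.10 in the deposited matrix) and lower by the other 2. Among immediate early genes 10 of 32 fell, with Atf3 (-3.23), Fosb (-2.22), Fos (-2.02), Btg2 (-2.02) and Egr1 (-1.42), and 4 rose, with Egr2 at 1.86. The mean level over that list was 1.79 to 1.85 on rapamycin arrays and 1.23 to 1.80 on BA+rapamycin arrays. BA+rapamycin replicate 2, at 1.80, lay within the rapamycin range. Klf transcription factors fell in 7 of 14 cases and rose in 0, with a median of -0.72, or -0.45 with undetected genes at their bound. Of the 10 members above background on all 6 arrays, 4 fell, so the count of falls rests in part on members that some arrays did not detect. Klf15, a target of the glucocorticoid receptor that restrains smooth muscle inflammation, was at 1.82, 1.19 and 2.49 on the rapamycin arrays and -3.17, -3.20 and -2.11 on the BA+rapamycin arrays, with 1 of 3 BA+rapamycin arrays above background. Its difference was -4.66 (SE 0.41, limma adjusted p 9.39e-05). Klf12 fell (-1.41) and Klf11 was at least 1.28-fold lower. The vascular factors Klf4 (-0.13) and Klf2 (-0.23) did not pass the test. Of corticosteroid receptors and targets 13 of 30 fell and 4 rose. The falls included the receptor Nr3c1 (-0.91), Zbtb16 (-1.73), Tsc22d3 (-1.09) and Pdk4 (-1.92). The probes of Fam107a were called in opposite directions (3.03 and -2.70), and Fkbp5 differed by -0.017 (adjusted p 0.980). Of these lists, 3 immediate early genes, 1 Klf factor and 2 corticosteroid genes were called lower with the brightness covariate.

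Core genes of the circadian clock have daily rhythms, so the hour of sampling sets their level, and that hour is not given in the sources used here. Of 22 genes 11 fell and 5 rose, and 1 was called lower with the brightness covariate. Nr1d1 was at 0.82, 2.94 and 2.80 on the rapamycin arrays and 0.52, -0.15 and 0.13 on the BA+rapamycin arrays, with rapamycin replicate 1 near the challenged arrays. Its difference was -2.02 (SE 0.58, limma adjusted p 0.0184). The output factors Dbp (-1.91), Hlf (-1.48) and Tef (-1.10) and the repressors Per2 (-1.46) and Per1 (-0.84) fell, while Npas2 (1.79) and Arntl2 (1.67) rose and Arntl did not pass the test (-0.41). The E-box CACGTG, the site of the clock activators, was in 2 of 8 members that fell and had a promoter, Per1 and Tef. It was in 8.09% of all genes with a promoter. It was also in 1 of 3 promoters of members that rose, that of Bhlhe41 (1.74). The promoter of Per1 (chr11:69098699-69098998 (plus strand), same source and window) is shown with the box in capitals.
Per1: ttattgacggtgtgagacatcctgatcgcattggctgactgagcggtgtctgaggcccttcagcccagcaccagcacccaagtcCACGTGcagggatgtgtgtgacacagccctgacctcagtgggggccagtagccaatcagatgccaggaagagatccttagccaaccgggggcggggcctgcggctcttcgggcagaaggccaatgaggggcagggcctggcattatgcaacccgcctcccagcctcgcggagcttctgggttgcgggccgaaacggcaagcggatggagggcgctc
The 11 of 22 clock genes that fell stood beside 22.9% of all probes, and whether the hour differed between the groups was not tested.

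Lipid mediators and coagulation were mixed. Of prostanoid and leukotriene genes 6 of 23 rose, with the leukotriene receptor Ltb4r1 (3.59), the prostaglandin receptor Ptger1 (2.83) and the leukocyte proteins Alox5ap (1.62) and Alox5 (1.12), and 5 fell, with Pla2g5 (-2.28). The inducible cyclooxygenase Ptgs2 differed by 1.94 (SE 0.76, adjusted p 0.0616). In coagulation and fibrinolysis 6 of 20 rose, among them F10 (2.70), F5 (1.81) and the urokinase receptor Plaur (1.42), and Serpine2 fell. The renin-angiotensin list had 10 of 16 genes tested, with Ren1 higher (1.11, 2 of 3 rapamycin arrays above background), Lnpep lower (-0.82), the peptidase Mme called lower and above background on no BA+rapamycin array, and the converting enzyme Ace at -0.45 (adjusted p 0.0557).

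The same challenge was given to vehicle-treated mice, and the 2 comparisons share no array. All DMSO arrays lay on slide 1 and all BA+DMSO arrays on slide 2, so on vehicle slide and challenge cannot be told apart, and this holds for every vehicle value and for the difference between the challenges. There, 5697 of the 27801 probes (20.5%) were called. Of the 11602 probes called in rapamycin-treated mice, 97.2% had the same sign on vehicle, and 4644 were called in both, 4635 in the same direction and 9 in opposite directions. These are 40.0% of the calls in rapamycin-treated mice and 81.5% of those on vehicle. Limma's test of the difference between the challenges called 0 probes. Before adjustment 1702 had a p under 0.05, and the lowest p after adjustment was 0.308. With BA+DMSO replicate 2 left out it called 3058, and without BA+rapamycin replicate 3 it called 1, so the count rests on which arrays enter. The counts of calls in the 2 comparisons cannot be read as sizes of response, and replicates of BA+DMSO correlated less well, at 0.912 to 0.961.

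The genes with the smallest unadjusted p for that difference are given as values. Tmem190 was undetected on the rapamycin arrays and reached -2.18, -1.66 and -1.70 on the BA+rapamycin arrays, at least 4.71-fold higher, and was above background on no vehicle array (adjusted p of the difference 0.308). Alpl, the alkaline phosphatase of mineralising tissue, was at 0.44, 0.64 and 0.45 on the rapamycin arrays and 3.57, 4.03 and 3.49 on the BA+rapamycin arrays. It differed by 3.19 here and by 0.82 on vehicle (adjusted p 0.460). Lyrm7 was above background on no array of either group, so no fold is given. In the other direction, Colec11 differed by -3.51 here, with signal over background on 1 of 3 challenged arrays, and by -0.74 on vehicle, and Gstm6, a glutathione transferase, was at least 1.64-fold lower here and differed by -0.63 on vehicle. Ebi3, a subunit of interleukins 27 and 35, was at -1.95, -1.68 and -1.68 on the rapamycin arrays and -0.91, -1.24 and -1.07 on the BA+rapamycin arrays, a difference of 0.69 beside 2.15 on vehicle (adjusted p 0.308).

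Set side by side, the medians of the lists were close in some groups and apart in others, none of them tested for a difference, and those on vehicle set slide 2 against slide 1. Mitosis had 2.85 in rapamycin-treated mice and 3.49 on vehicle, DNA replication 0.37 and 1.25, and macrophage genes 1.27 and 2.36. Smooth muscle contraction had -0.75 and -0.81, and chemokines 1.21 and 1.50. The mesothelial list had 0.17 (-0.24 in the deposited matrix and 0.63 with normexp) and 0 members called here (7 called higher with normexp), and 2.49 and 8 members called on vehicle, and 6 of 12 had an unadjusted p under 0.05 for the difference. Among single genes, Il11 differed by 4.55 here and 1.81 on vehicle, Synpo2 by -2.82 and -2.58, and Mki67 by 5.06 and 4.69.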

How the data were processed

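Total RNA of each aorta was labelled with Cy3 (TRIzol and SV Total RNA kit, Low Input Quick Amp labelling) and hybridised to 1-colour Agilent mouse arrays. The authors deposited scanner files with the processed signal, an intensity that is background-subtracted per the file headers (Feature Extraction 10.7.1.1, while the submitters' processing notes name 9.5.1.1), with flags (other) per spot and probe positions on mm9, and a matrix of linear intensity values whose columns share the same quantiles. Its log2 values correlated at 0.99994 with quantile normalization of the same intensities, and they served as an alternative.

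Of 62976 spots, 3671 controls were left out and spots of a probe were averaged, which gave 55681 probes. The log2 processed signal minus the 75th percentile of each array was used, and 27801 probes well above background on every array of at least 1 group were tested (for a probe with several spots, a share of at least 0.5 of its spots). All 12 arrays in 4 groups entered 1 model in limma 3.58.1 (R 4.3.3, prior degrees of freedom 3.02), with Benjamini-Hochberg adjustment and a threshold of 0.05. A gene in a list stands by its tested probe with the highest mean level. Where no array of a group was well above background, "at least" folds compare the mean of the brighter group with the lowest signal well above background on each array of the dimmer group, or with the probe's own signal if higher. No spot was saturated. The test was checked on simulated data. RefSeq names came from unversioned accessions (17563 of 18192 found, 1736 under another symbol), and the symbols of the files were kept.

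The members and gene lists were chosen with earlier results of these data known. Named are the 12 largest rises and falls detected on all 6 arrays without overlap, the 5 largest bounded rises and falls, up to 3 called members with the largest change and role-defining members of each list, and the 3 smallest p-values each way for the difference between the challenges. Other members that are named were chosen after their values were seen. Each array is 1 mouse, so the number of arrays limits the precision. Alternatives were quantile normalization, cyclic loess, normexp background correction (offset 50), other filters, the percentile over detected probes, slide, brightness, array weights, a fit of 6 arrays and leaving out each array.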

Additional observations from a re-analysis of the deposited data

How the results depend on the processing

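The 11602 calls (5244 higher, 6358 lower) stayed within 1.5 times under quantile normalization, the deposited matrix, cyclic loess, the percentile over detected probes, a fit of 6 arrays and slide as a block. Other settings moved them. A fold of at least 2 in addition left 6805. With no filter 29650 were called (23665 higher), with normexp 10272 were higher, within the second slide 3268 were called (1681 higher, 1587 lower), with the brightness covariate 1786 (1285 higher, 501 lower), and with array weights 18256 (8277 higher, 9979 lower), where the estimate of the weights did not converge. Scaling by the spike-in controls, an alternative chosen after seeing the data, gave 23960 (231 higher, 23729 lower). Leaving out 1 array at a time gave 6530 (without rapamycin replicate 3) to 15816 calls, 3014 to 7111 higher and 3516 to 8705 lower. The study's rule gave 1428 probes, and 450 with normexp, 846 with only probes detected on all 6 arrays, 2858 with no filter, 835 with the brightness covariate and 1134 to 1554 without 1 array. The difference between the challenges had 0 calls, and 0 to 3058 without 1 array (1 without BA+rapamycin replicate 3, 3058 without BA+DMSO replicate 2). Except where an alternative tests fewer probes or arrays, the cause was not tested.

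Among named genes called as reported or under the setting given, the brightness covariate turned the sign of Shank2 (-0.41), Syn3 (-1.18), Gbp6 (-1.04), Zfhx2 (-0.99), Mrgprg (-0.84), Klra1 (-0.77), Rabgap1 (-0.72), Tbx22 (-1.21), Ncoa7 (-0.98), Defb28 (-0.11), Bhlhe41 (-1.0), Cat (-0.19), Cd22 (-0.42), Cpt1b (-0.015), Csf3r (-0.44), Eln (1.50), F10 (-0.90), Fam107a (-0.11), Hspa8 (-0.076), Itgam (-0.062), Lnpep (0.024), Ndufa10 (0.20), Ndufs8 (0.50), Uqcrc1 (0.18), Npas2 (-0.94), Pdcd4 (-0.11), Pola1 (0.15), Rpa1 (0.025), Rrp1b (-0.15), Serpine2 (0.036) and Tagln (-0.025). With normexp it turned for Btc (0.12), Cd5 (0.26), Egln3 (0.13), Gstm6 (0.068), Kcnq5 (0.41), Klf11 (0.37) and Mme (0.62). Under quantile normalization and in the deposited matrix it turned for Acta2 (-0.64 and -0.62), Hspa8 (-0.11 and -0.10) and Tagln (-0.19 in both). Scaled by the spike-in controls, 89 of the 173 genes called higher among the 312 counted above were below 0.

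No paired analysis was possible because the titles of the BA+rapamycin and rapamycin arrays share no complete number, and replicates were numbered in order of deposit. Complete title numbers are shared by 2 rapamycin arrays and 1 BA+rapamycin array with a DMSO array each. What they mark is not stated, and they were not used. Low signal limits the fold of genes not well above background in 1 group to a bound.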
